A study of Drosophila melanogaster with 6 samples.

Results

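The mitochondrial genome of Drosophila melanogaster has 38 rows in the deposited expression table of 17807 genes, chosen as every row whose FlyBase symbol begins with mt:. They are 13 protein-coding genes, 2 ribosomal RNAs (rRNA), 22 transfer RNAs (tRNA) and mt:ori, the control region that holds the origin of replication. Mitochondria keep a small circular genome of their own, which a dedicated polymerase transcribes from both strands into long precursors that are then cut, largely at the tRNAs between the other genes. The protein-coding genes specify core subunits of respiratory complexes I, III and IV and of ATP synthase (complex V), which are assembled with many subunits made from nuclear genes. The rRNAs and tRNAs serve the ribosomes that translate these mRNAs inside the organelle. In the fly midgut, the balance between respiration and glycolysis in stem cells is known to bear on how they divide and differentiate.

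RNA was sequenced from GFP-positive progenitors, the intestinal stem cells and enteroblasts (ISC/EB), sorted from 70 dissected guts per replicate. The H1 RNAi group of 3 libraries (A, B and C) carried esgts, UAS-GFP UAS H1 RNAi 1, and the control group of 3 libraries (A, B and C) carried esgts, UAS-GFP alone. Both groups therefore carry the temperature-sensitive esg driver, active in progenitors, and its GFP reporter, and a single RNAi construct against the linker histone H1 was used. The labels give 4 days of induction at 29 °C for both groups, while the growth protocol, worded for another transgene, gives flies 3 days old kept at 18 °C and shifted to 29 °C for 1 day. Nothing in the labels says that the replicates came from separate crosses, and p-values then measure only how these libraries vary, which may be technical. The question here is whether transcripts of the mitochondrial genome differ between H1 RNAi and control progenitors.

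Values are TPM, abundance divided by gene length and scaled to the same total in every library. The 23 rows of His1 gene copies read 0 TPM throughout, so the knockdown could not be checked from these values. Of the markers of other cells, the 8 enteroendocrine genes summed to 1051 to 1557 TPM in H1 RNAi and 2363 to 3168 TPM in control, with no overlap. NPF alone gave 891 to 1331 TPM of this in H1 RNAi and 1964 to 2616 TPM in control. Tk, IA-2 and pros were also lower without overlap, while AstA, AstC, Dh31 and CCHa1 overlapped. The 7 enterocyte genes summed to 590 to 1521 TPM in H1 RNAi and 423 to 1297 TPM in control. Of these, Hnf4 was lower without overlap, at 35.0 to 40.5 TPM in H1 RNAi and 45.4 to 47 TPM in control, and the rest overlapped. The 6 progenitor genes with a row matched by symbol summed to 2090 to 2268 TPM in H1 RNAi and 1972 to 2326 TPM in control. Of these, mira was higher without overlap, at 131 to 202 TPM in H1 RNAi and 92.9 to 125 TPM in control. The rest overlapped. Groups did not overlap for 30.8% of all genes tested. The 10 visceral muscle genes together reached 3.70 to 6.81 TPM in H1 RNAi and 3.89 to 7.48 TPM in control, and 0 of the 10 reached 1 TPM in every library.

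The total of mitochondrial transcripts overlapped between the groups, and the rows spread over 4 orders of magnitude. All mt: rows together took 4.29%, 3.58% and 4.30% of the TPM in H1 RNAi A, B and C, against 3.36%, 4.05% and 4.15% in control A, B and C. The summed protein-coding TPM was 32037, 26695 and 31422 in the H1 RNAi libraries and 25496, 30241 and 31189 in the control libraries. The ranges overlap, with the lowest value in control A and the next lowest in H1 RNAi B. The mean log2 difference was 0.05 (exact two-sided permutation test, p = 0.5, n = 3 per group, where 3 against 3 cannot give a p under 0.1). In bulk samples such as these, fewer cells of a type and less RNA per cell cannot be told apart.

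The subunits of cytochrome c oxidase (complex IV, which passes electrons to oxygen) were the highest mitochondrial mRNAs. CoIII, a core subunit of complex IV (mitochondrion_genome, 4736 to 5524, plus strand, BDGP6.54), was at 11733, 9724 and 11866 TPM in H1 RNAi A, B and C, against 9509, 11239 and 11634 TPM in control A, B and C. Its mean ranked 3 among all genes of the table. CoI, the catalytic subunit (1474 to 3009, plus strand), was at 8570, 6997 and 7913 TPM in H1 RNAi, against 6426, 7854 and 7992 TPM in control. CoII, which receives electrons from cytochrome c (3083 to 3767, plus strand), was at 5133, 4778 and 5284 TPM in H1 RNAi, against 4358, 5250 and 4993 TPM in control. The groups overlapped for each of the 3, and control A had the lowest value of the 6 libraries each time. Their log2 fold changes on the log2(TPM + 1) scale were 0.04 for CoIII, 0.08 for CoI and 0.06 for CoII, with adjusted p of 0.848, 0.705 and 0.705 (limma).

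Cyt-b, the only mitochondrially encoded subunit of complex III (10499 to 11635, plus strand), was at 2539, 1996 and 2574 TPM in H1 RNAi, against 2112, 2373 and 2736 TPM in control. ATPase6, the proton channel subunit of ATP synthase (4062 to 4736, plus strand), was at 2217, 1781 and 2147 TPM in H1 RNAi, against 1618, 1904 and 2027 TPM in control. Both overlapped between groups, with log2 fold changes of -0.02 for Cyt-b (adjusted p = 0.934, limma) and 0.15 for ATPase6 (adjusted p = 0.499, limma). The 5 rows CoIII, CoI, CoII, Cyt-b and ATPase6 made up 94.2% to 94.8% of the summed protein-coding TPM in every library.

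The 7 subunits of complex I, the NADH dehydrogenase that feeds electrons into the chain, were lower and uneven. ND1, of the membrane arm (11721 to 12659, minus strand), averaged 589 ± 67.7 TPM in H1 RNAi and 613 ± 81.3 TPM in control (SD, n = 3 each). The antiporter-like subunit ND5 (6409 to 8125, minus strand) averaged 420 ± 37.8 TPM in H1 RNAi and 407 ± 21.6 TPM in control. ND4, also antiporter-like (8207 to 9545, minus strand), averaged 396 ± 63.5 TPM in H1 RNAi and 375 ± 47.4 TPM in control, and stood below ND5 in 5 of 6 libraries. These 3 are the abundant mRNAs of the minus strand, and their groups overlapped. ND3, which joins the membrane arm to the peripheral arm (5608 to 5961, plus strand), ranged from 125 to 227 TPM in H1 RNAi and from 164 to 234 TPM in control.

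The remaining members of complex I, ND2, ND6 and ND4L, were listed far lower. ND2, antiporter-like (240 to 1263, plus strand), was at 35.0, 32.4 and 20.5 TPM in H1 RNAi A, B and C, against 29.8, 32.1 and 26.1 TPM in control A, B and C. ND6, of the membrane arm (9971 to 10495, plus strand), was at 14.3, 15.8 and 7.20 TPM in H1 RNAi, against 11.01, 12.2 and 11.3 TPM in control. ND4L, also of the membrane arm (9545 to 9835, minus strand), was at 8.30, 10.2 and 2.94 TPM in H1 RNAi, against 9.69, 10.1 and 4.45 TPM in control. H1 RNAi C was the lowest library for all 3, and for ND2 and ND4L control C was the next lowest.

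ND4L and ND4 share 1 base on the same strand and are carried on a common mRNA, yet the TPM of ND4 was between 31.7 and 145 times that of ND4L over the 6 libraries. The ratio of ND4 to ND4L was 52.7, 31.7 and 145 in H1 RNAi and 35.6, 34.7 and 96.5 in control, so it was highest in the C library of each group. The handling of reads that span overlapping genes was not given in the sources used here.

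**Figure D1:**
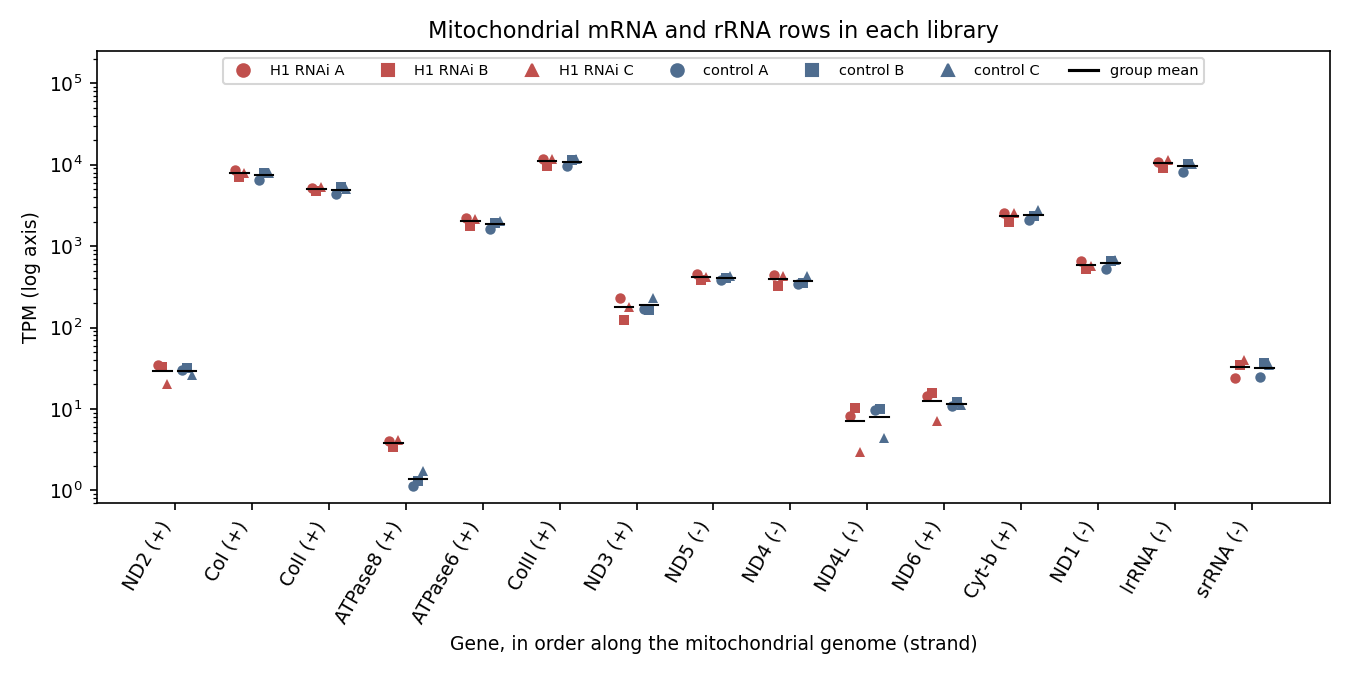
TPM on a log axis of the 13 protein-coding and 2 rRNA rows in gene order along the mitochondrial genome, with the strand in brackets; points are libraries, shapes are replicate letters and black lines are group means. The groups overlap for every row except ATPase8, where H1 RNAi lies at 3.38 to 4.17 TPM and control at 1.12 to 1.71 TPM.

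The large rRNA stood with the highest mRNAs and the small rRNA did not. The large-subunit rRNA lrRNA (12735 to 14058, minus strand) was at 10862, 9024 and 11491 TPM in H1 RNAi, against 8025, 10227 and 10276 TPM in control. The small-subunit rRNA srRNA (14131 to 14916, minus strand) was at 24.0, 34.6 and 40.3 TPM in H1 RNAi, against 24.4, 36.6 and 34.3 TPM in control. The ratio of lrRNA to srRNA thus lay between 261 and 452, although a ribosome holds 1 of each. The library kit selects polyadenylated RNA, and the part of RNA tails in this ratio was not tested. Neither rRNA passed the test, with log2 fold changes of 0.14 for lrRNA (adjusted p = 0.542, limma) and 0.04 for srRNA (adjusted p = 0.931, limma). The ratio of rRNA to protein-coding TPM was 0.340, 0.339 and 0.367 in H1 RNAi and 0.316, 0.339 and 0.331 in control, overlapping between groups (exact two-sided permutation p = 0.2, n = 3 per group).

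Across the 15 mRNA and rRNA rows, the order of mean TPM was CoIII, lrRNA, CoI, CoII, Cyt-b, ATPase6, ND1, ND5, ND4, ND3, srRNA, ND2, ND6, ND4L and ATPase8. Within each library the order held in 6 of 6 libraries for most neighbours. It held in 5 of 6 for ND5 over ND4 and for ND4L over ATPase8, and in 4 of 6 for srRNA over ND2. The 10 rows with a mean of at least 100 TPM differed by 1.20 to 1.86 times between their highest and lowest library, and the 5 lower rows by 1.68 to 3.72 times. Of those 10, control A was the lowest library for 6 and H1 RNAi B for the other 4. The 5 lower rows had their lowest value in H1 RNAi C in 3 cases and in H1 RNAi A and control A in 1 case each.

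The balance between the 2 strands overlapped between groups. Minus-strand mRNA TPM (ND1, ND4, ND4L and ND5) over plus-strand mRNA TPM was 0.0513, 0.0488 and 0.0476 in H1 RNAi and 0.0521, 0.0490 and 0.0518 in control, a difference within the spread between libraries (exact two-sided permutation p = 0.2, n = 3 per group). As shares of the protein-coding TPM, CoIII took 36.9 ± 0.722% in H1 RNAi and 37.3 ± 0.0764% in control (SD, n = 3 each). CoI took 26.05 ± 0.796% in H1 RNAi and 25.6 ± 0.384% in control.

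The groups did not overlap for 2 of the 13 shares, those of ATPase6 and ATPase8, beside 30.8% of all genes tested whose TPM did not overlap. ATPase6 took 6.92%, 6.67% and 6.83% in H1 RNAi, against 6.35%, 6.30% and 6.50% in control. CoIII follows ATPase6 directly on the genome with 1 shared base. In a ratio chosen after the values were seen and not tested, CoIII stood at 5.29, 5.46 and 5.53 times the TPM of ATPase6 in H1 RNAi, against 5.88, 5.90 and 5.74 times in control. In the fit across all genes with the mt: rows set to a fixed sum, ATPase6 had a log2 fold change of 0.07 and did not pass (adjusted p = 0.508, limma).

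**Figure D2:**
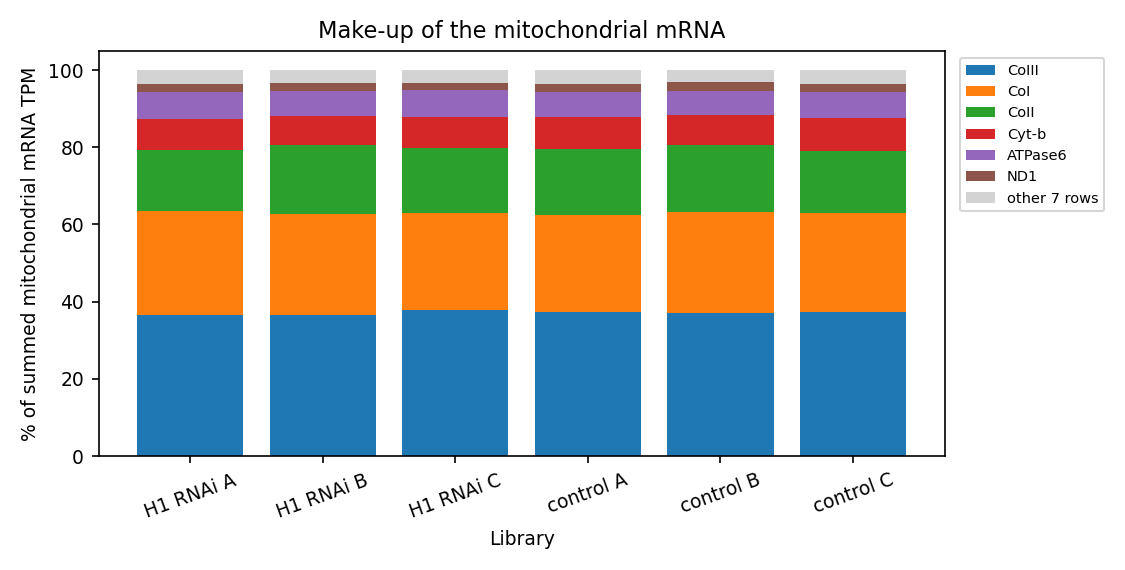
Share in percent of the summed protein-coding TPM taken by each mitochondrial mRNA, stacked from 0 to 100% per library. CoIII, CoI, CoII, Cyt-b and ATPase6 fill 94.2% to 94.8% of every bar.

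H1 RNAi was tested against control over 8124 genes that reached 1 TPM in 3 or more libraries. Of these, 2.83% had an adjusted p under 0.05, with 2.28% higher in H1 RNAi and 0.554% lower. All 13 protein-coding rows, both rRNAs and 4 of 22 tRNAs passed this filter. Of the 13 protein-coding rows, 1 rose, 0 fell and 12 did not pass. Of the 2 rRNAs 0 passed, and of the 4 tested tRNAs 0 passed (limma, with 0 and 1 of them at an unadjusted p under 0.05, as had 23.8% of all genes tested). The groups did not overlap for 2 of the 19 tested rows, beside 30.8% of all genes tested. The median log2 fold change of the protein-coding rows was 0.04, beside 0.14 for all genes tested. Of the 10 mRNA and rRNA rows with a mean of at least 100 TPM, log2 fold changes lay between -0.12 and 0.15, and each 95% interval spanned 0. The narrowest interval was that of CoII, from -0.14 to 0.26, and the widest that of ND3, from -0.69 to 0.46. With TMM scaling, which lines up libraries on a trimmed mean of their log ratios, the median of all genes moved to 0.02 and that of the protein-coding rows to -0.08, and CoI, CoII, CoIII, ND4, ND5, ND6 and srRNA then changed sign without a call.

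**Figure D3:**
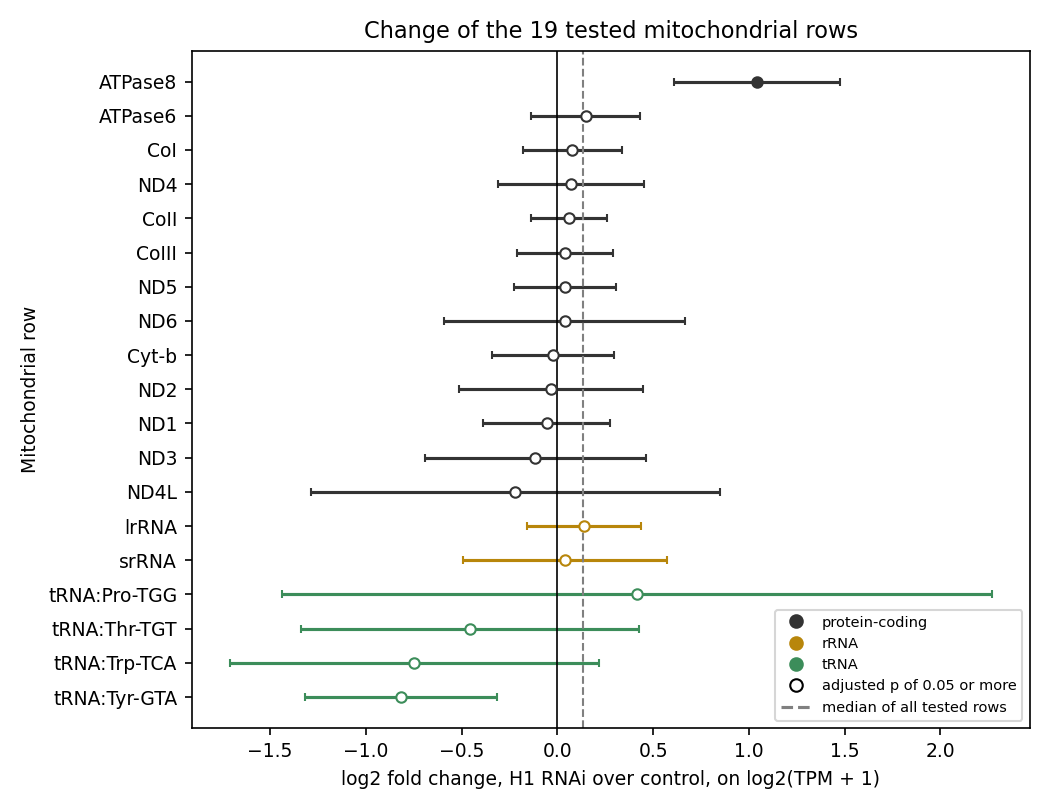
Log2 fold change of H1 RNAi over control for the 19 tested mitochondrial rows, with 95% intervals from limma; filled points have an adjusted p under 0.05 and the dashed line is the median of all genes tested, 0.14. ATPase8 is the filled point, at 1.04, and the abundant mRNAs lie close to 0.

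The row that rose was ATPase8, a small membrane subunit of ATP synthase (3907 to 4068, plus strand), which had the lowest TPM of the mRNA and rRNA rows. It was at 4.07, 3.38 and 4.17 TPM in H1 RNAi A, B and C, against 1.12, 1.29 and 1.71 TPM in control A, B and C. All H1 RNAi values lay above all control values, which was true of 24.3% of the genes tested. Of the 1527 tested genes with a mean of 1 to 5 TPM, 17.1% had that separation and 2.36% were called higher. The means were 3.87 ± 0.430 TPM in H1 RNAi and 1.37 ± 0.304 TPM in control (SD, n = 3 each), a ratio of 2.82. The log2 fold change on the log2(TPM + 1) scale, which understates changes near 1 TPM, was 1.04 ± 0.18 (SE, adjusted p = 0.0395, limma).

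This call was close to the threshold. It was lost when any library except control B was left out (adjusted p from 0.0860 to 0.140, limma), with TMM scaling (0.0715), with quantile normalization (0.0976) and with no filter on low values (0.0653), while the log2 fold change stayed between 0.91 and 1.14 under these. With a pseudocount of 0.1 or 5 the call was kept (adjusted p of 0.0460 and 0.0377, limma) and the log2 fold change was 1.45 and 0.48. The enteroendocrine marker sums given above also differed between the groups, and their part in this and the other calls was not tested.

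ATPase8 shares its last 7 bases with the start of ATPase6, and the 2 genes are read from a common mRNA. The TPM of ATPase6 was 545, 527 and 515 times that of ATPase8 in H1 RNAi and 1445, 1476 and 1185 times in control. The ratio was thus lower in each H1 RNAi library than in each control library, while ATPase6 itself overlapped between groups. How reads that span the 2 genes were counted was not given here either. Its part in the low values of ATPase8 and in their rise was not tested. The ATPase8 row therefore cannot be read as the level of the common mRNA.

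The low rows rest on few reads, and the table shows how few. In each library, the TPM of 207 to 259 short, single-exon nuclear genes, multiplied by gene length, came out as whole multiples of one library-specific unit for 99.1% to 100% of genes, allowing 0.1 of a unit beyond rounding. The median over other units in the range searched was 30.1% to 38.4%. Taking that unit as 1 counted read (or read pair, which cannot be told apart), the libraries held about 37900000 to 43200000 counted reads over genes with a length, and the mt: rows took 2.03% to 2.68% of them. ATPase8 then had 15, 12 and 15 reads in H1 RNAi A, B and C, and 4, 5 and 6 reads in control A, B and C, each within 0.0171 of a whole number. The sums were 42 reads in H1 RNAi (95% exact Poisson interval 30.3 to 56.8) and 15 reads in control (8.40 to 24.7), where the intervals cover counting error only.

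ND4L had 55, 65 and 19 reads in H1 RNAi and 62, 70 and 28 reads in control, with the fewest in the C library of each group. ND6 had 171, 182 and 84 reads in H1 RNAi and 127, 153 and 128 reads in control. By contrast CoI, at 1536 bases, rested on about 216856 to 299721 reads, so counting error is small there beside the spread between libraries.

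**Figure D4:**
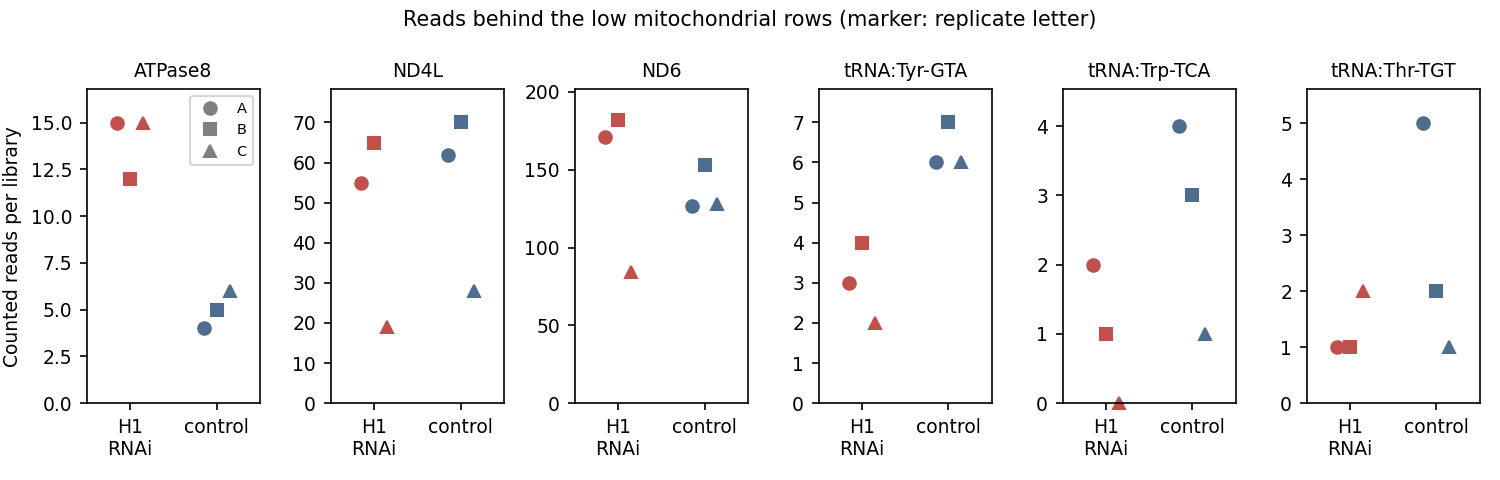
Counted reads per library behind 6 low mitochondrial rows, recovered from the steps in the TPM values; each panel has its own axis from 0, and shapes are replicate letters. ATPase8 has 12 to 15 reads in H1 RNAi and 4 to 6 in control, while tRNA:Tyr-GTA has 2 to 4 in H1 RNAi and 6 to 7 in control.

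Most of the tRNAs, which carry amino acids to the mitochondrial ribosome, were not detected in these libraries, which select polyadenylated RNA; the part of that selection was not tested. Of 22 tRNA rows, 15 were listed at 0 in all 6 libraries, as was mt:ori. These rows are 62 to 72 bases long, so a count of 0 allows up to 1.75 to 2.24 TPM (3 reads) depending on the library and length. The values of tRNA:Pro-TGG gave no whole reads with the annotated length, and this row was left out after its values were seen. Over the other 21 tRNA rows there were 7, 7 and 4 reads in H1 RNAi A, B and C. In control A, B and C there were 15, 12 and 9 reads. These sums, of which tRNA:Tyr-GTA is a large part, did not overlap and were not tested. Of all genes tested, 6.45% were lower in H1 RNAi without overlap. With the values of tRNA:Pro-TGG rounded to whole reads, the totals over all 22 rows overlapped. They were 7, 10 and 13 reads in H1 RNAi and 19, 14 and 9 reads in control. The H1 RNAi C total is approximate, since tRNA:Pro-TGG came to 8.66 units there, rounded to 9 reads. The summed TPM of all 22 rows overlapped, at 4.62, 7.13 and 8.63 in H1 RNAi and 13.3, 9 and 6.28 in control (mean log2 difference -0.47, exact two-sided permutation p = 0.4, n = 3 per group). Without tRNA:Tyr-GTA the difference was -0.020 (exact two-sided permutation p = 1, n = 3 per group). With all 22 rows kept and single libraries left out, the difference ran from -0.74 to -0.19.

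The row for the tyrosine tRNA, tRNA:Tyr-GTA (1403 to 1468, minus strand, 5 bases before CoI on the other strand), was at 2, 2.77 and 1.36 TPM in H1 RNAi, against 4.14, 4.45 and 4.21 TPM in control. These are 3, 4 and 2 reads in H1 RNAi and 6, 7 and 6 reads in control. The groups did not overlap, as for 6.45% of the genes tested in this direction and 12% of those with a mean of 1 to 5 TPM. The log2 fold change was -0.82 ± 0.21 (SE) and did not pass (adjusted p = 0.0856, limma), and the Poisson intervals of the summed reads, 4.12 to 17.1 in H1 RNAi and 11.4 to 29.7 in control, overlap.

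The other 3 tested tRNAs also rested on few reads. The tryptophan tRNA, tRNA:Trp-TCA (1264 to 1329, plus strand), had 2, 1 and 0 reads in H1 RNAi and 4, 3 and 1 reads in control. The threonine tRNA, tRNA:Thr-TGT (9838 to 9902, plus strand), had 1, 1 and 2 reads in H1 RNAi and 5, 2 and 1 reads in control. Their log2 fold changes were -0.75 and -0.46, with adjusted p of 0.312 and 0.499 (limma). The proline tRNA, tRNA:Pro-TGG (9903 to 9968, minus strand), was at 0, 2.24 and 5.91 TPM in H1 RNAi and 2.98, 1.37 and 0 TPM in control, a difference well inside the spread between libraries (adjusted p = 0.791, limma). With the annotated length these values came to 3.24 and 8.66 units of 1 read in H1 RNAi B and C. In control A and B they came to 4.32 and 2.16 units. These are not whole reads, and the length in the authors' annotation may differ from that used here. Reads at another length were not worked out. The tRNAs Gln-TTG, Cys-GCA and Lys-CTT were seen in 1 library each, with 1 read.

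Of 69 tested nuclear subunits of oxidative phosphorylation, 0 passed in either direction, beside 2.83% of all genes tested (limma). An unadjusted p under 0.05 was found for 11 of them (15.9%), beside 23.8% of all genes tested, and 66 of 69 had a log2 fold change above 0, beside 68.3%. Their median log2 fold change was 0.28, beside 0.04 for the mitochondrial mRNAs and 0.14 for all genes tested. The distance between the first 2 medians depended on single libraries, with 0.18 for the nuclear subunits and 0.08 for the mitochondrial mRNAs without control C, 0.22 and 0.11 without H1 RNAi B, and 0.38 and -0.02 without control A. The median was 0.27 for 32 tested subunits of complex I, 0.27 for 10 of complex III, 0.32 for 11 of complex IV and 0.27 for 11 of complex V. The complex I accessory subunits ND-ASHI, at 42.8 ± 3.29 TPM in H1 RNAi and 31.53 ± 4.604 TPM in control (adjusted p = 0.112, limma), and ND-B17.2, at 87.9 ± 8.08 TPM in H1 RNAi and 65.3 ± 9.31 TPM in control (adjusted p = 0.125, limma), had the smallest p (SD, n = 3 each). With TMM scaling the median of the nuclear subunits was 0.15 and that of the mitochondrial mRNAs -0.08.

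Within a library, the summed TPM of the mitochondrial subunits was set against that of the nuclear subunits of the same complex, a ratio that does not depend on scaling. For complex I it was 0.627, 0.456 and 0.644 in H1 RNAi A, B and C, against 0.531, 0.682 and 0.840 in control A, B and C. For complex III it was 1.83, 1.35 and 2.17 in H1 RNAi, against 1.68, 2.10 and 2.94 in control. Complex IV had by far the highest ratio, at 9.31, 7.15 and 10.4 in H1 RNAi, against 8.46, 10.8 and 13.3 in control. For complex V it was 0.518, 0.426 and 0.655 in H1 RNAi, against 0.414, 0.550 and 0.715 in control. The nuclear side of complex V was taken by symbol and leaves out the alpha subunit, named blw in the fly.

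All 4 ratios overlapped between groups, with H1 RNAi B lowest and control C highest except for complex V, where control A was lowest. The mean log2 differences were -0.24, -0.32, -0.27 and -0.06 for complexes I, III, IV and V, and the smallest p was 0.4 (exact two-sided permutation test, n = 3 per group, adjusted p over the 4 complexes 0.667 to 0.8). With 3 libraries a group, a shift of this size was not distinguishable from the spread between libraries.

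**Figure D5:**
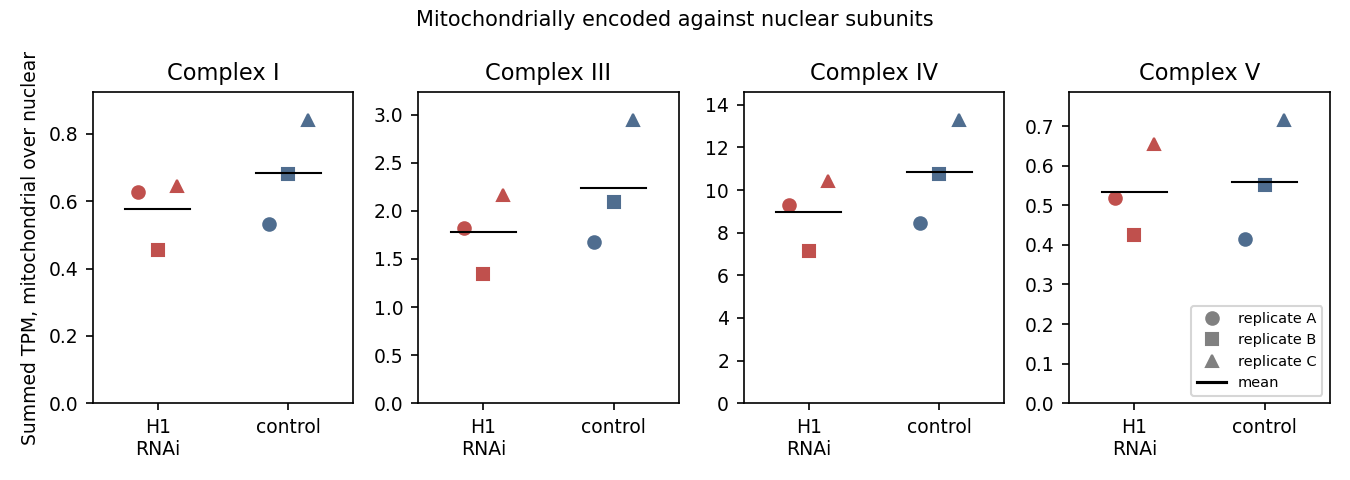
Summed TPM of mitochondrially encoded subunits over summed TPM of nuclear subunits, per library, for respiratory complexes I, III and IV and ATP synthase (complex V); points are libraries, lines are group means and each axis starts at 0. The groups overlap in every panel, with complex IV at 7.15 to 13.3 and complex V at 0.414 to 0.715.

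Among nuclear genes that copy, transcribe and process the mitochondrial genome, 2 of 22 tested rose, 0 fell and 20 did not pass, beside 2.28% of all genes tested that were higher. An unadjusted p under 0.05 was found for 8 of 22 (36.4%), beside 23.8% of all genes tested. Of the 22, 19 lay above 0, beside 68.3%, and the median log2 fold change was 0.25, beside 0.14. The gene mTTF, a transcription termination factor of the mitochondrial genome, was at 19.3, 21.7 and 19.2 TPM in H1 RNAi, against 13.1, 13.4 and 13.7 TPM in control. Its log2 fold change was 0.55 ± 0.10 (SE, adjusted p = 0.0399, limma). The catalytic subunit of the mitochondrial DNA polymerase, PolG1, was at 12.26, 13.03 and 12.01 TPM in H1 RNAi, against 7.92, 7.66 and 5.81 TPM in control. Its log2 fold change was 0.73 ± 0.14 (SE, adjusted p = 0.0487, limma). For both genes H1 RNAi lay above control without overlap, as for 24.3% of all genes tested. Both calls were lost when any library except control B was left out (adjusted p up to 0.215, limma). They were also lost with TMM scaling, with quantile normalization and with no filter (adjusted p up to 0.135 among these, limma). PolG1 also lost its call with a pseudocount of 0.1 (0.0525). Over the settings tried the log2 fold change ran from 0.34 to 0.58 for mTTF and from 0.52 to 0.81 for PolG1.

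The protein parts of the mitochondrial ribosome and its helpers were also mostly without a call. Of 71 tested mitochondrial ribosomal protein genes, 1 rose, 0 fell and 70 did not pass, or 1.41% called beside 2.83% of all genes tested. An unadjusted p under 0.05 was found for 26 of 71 (36.6%), beside 23.8% of all genes tested. Of the 71, 65 lay above 0, beside 68.3%, and the median log2 fold change was 0.27, beside 0.14. The gene that rose was mRpL54, of the large subunit, at 30.9 ± 4.53 TPM in H1 RNAi and 18.4 ± 1.77 TPM in control (SD, n = 3 each, adjusted p = 0.0463, limma), a call lost with each library left out in turn (0.0540 to 0.190) and with TMM scaling (0.0648), quantile normalization (0.0729), no filter (0.0852) and ordinary moderation (0.0577). Of 23 mitochondrial translation factors and tRNA synthetases, 0 passed (limma), beside 2.83% of all genes tested. An unadjusted p under 0.05 was found for 11 of 23 (47.8%), beside 23.8%. All 23 lay above 0, beside 68.3%, and the median log2 fold change was 0.31, beside 0.14. The synthetase IleRS-m was at 15.04 ± 0.701 TPM in H1 RNAi and 9.93 ± 0.868 TPM in control (adjusted p = 0.0524, limma). It passed with a filter at 5 TPM (0.0497), with scaling without the mt: rows (0.0484) and with array weights (0.0358). It did not pass with TMM scaling (0.152), with quantile normalization (0.198) or with any library left out (0.0601 to 0.229). The synthetase CysRS-m was at 8.97 ± 1.05 TPM in H1 RNAi and 5.57 ± 0.457 TPM in control (adjusted p = 0.0779, limma).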

How the data were processed

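The authors deposited TPM values with 2 decimals for every gene in each library. Libraries were made with a stranded mRNA kit, per the labels' protocols. The submitters' processing notes name bcl2fastq and dm6. The aligner, counter, annotation and use of strand were not given in the sources used here. Gene names matched 17710 of 17807 rows; coordinates (1-based), strands and lengths are from Ensembl release 115 on BDGP6.54, whose coordinates are those of dm6.

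Genes that reached 1 TPM in 3 or more of the 6 libraries were fitted together on log2(TPM + 1) with limma 3.58.1 in R 4.3.3 (mean trend, robust moderation), with Benjamini-Hochberg adjustment over all of them at 0.05; the procedure was tested on simulated data. Sums and ratios used exact two-sided permutation tests in Python 3.11.15 with scipy 1.17.1. The value of 1 read per library was calibrated on nuclear single-exon genes shorter than 400 bases by TPM times length, and depth estimated from it is approximate. The members and gene lists were chosen with earlier results of these data known. Every mRNA and rRNA row is named, every tRNA row that passed the filter, and for each companion list up to 4 called genes or otherwise the 2 with the smallest adjusted p. The rows with 1 read, the pair ratios other than planned sums, and the split at 100 TPM were chosen after values were seen. Of the list names, Twnk, Top1mt, Trmt5, esg, Dl, hdc and Pdm1 matched no row by symbol. The 97 rows without a symbol could not be matched, so some of these genes may still have a row.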

Additional observations from a re-analysis of the deposited data

How the results depend on the processing

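The number of mitochondrial rows called, 1 (ATPase8), was 0 with no filter, with a filter at 5 TPM (which leaves ATPase8 untested), with TMM scaling, with quantile normalization and with the replicate block. It ranged from 0 to 1 on leaving out single libraries and stayed at 1 under the other settings tried. The number of all genes called, 230, was 90 with no filter, 131 with TMM scaling, 146 with quantile normalization, 142 with the replicate block and 547 with array weights, and 29 to 450 without single libraries.

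Log2 fold changes without a call changed sign in several rows. With TMM scaling CoI was at -0.048, CoII at -0.065, CoIII at -0.085, ND4 at -0.053, ND5 at -0.085, ND6 at -0.079 and srRNA at -0.080. With quantile normalization ND6 was at -0.17 and srRNA at -0.12. With the mt: rows set to a fixed sum CoII was at -0.014, CoIII at -0.034, ND4 at -0.0022, ND5 at -0.034, ND6 at -0.029 and srRNA at -0.030. With array weights ND4 was at -0.019 and ND5 at -0.0021. The cause was not tested.

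Without single libraries the log2 fold change ran from -0.023 to 0.16 for CoI, -0.017 to 0.12 for CoII, -0.048 to 0.13 for CoIII, -0.11 to 0.10 for Cyt-b, -0.17 to 0.019 for ND1, -0.18 to 0.20 for ND2, -0.32 to 0.11 for ND3, -0.0063 to 0.21 for ND4 and -0.55 to 0.24 for ND4L. It ran from -0.022 to 0.11 for ND5, -0.16 to 0.36 for ND6, -0.13 to 0.25 for srRNA and -0.23 to 1.16 for tRNA:Pro-TGG. The protein-coding median ran from -0.022 to 0.11, the summed protein-coding TPM from -0.036 to 0.14, and the mitochondrial-to-nuclear ratio of complex V from -0.26 to 0.14. Those of complexes I, III and IV ran from -0.41 to -0.080, -0.51 to -0.10 and -0.43 to -0.11.

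With TMM scaling the summed protein-coding difference was -0.072. Without the highest member of each set, the rRNA to mRNA ratio differed by -0.018 and the complex V ratio by 1.31, since srRNA and ATPase8 then stand alone. The mitochondrial ribosomal protein genes called, 1, were 0 with no filter, TMM scaling, quantile normalization, ordinary moderation, the replicate block and any library left out, and 3 with array weights. The DNA and RNA factors called, 2, were 1 with a pseudocount of 0.1, 0 with no filter, TMM scaling, quantile normalization and the replicate block, and 0 to 2 without single libraries. The translation factors called, 0, were 1 with a filter at 5 TPM, 1 with scaling without the mt: rows and 2 with array weights.

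The replicate letters were tried as a block, although pairing by letter was not shown: deviations from the group means correlated at 0.40 for A, 0.14 for B and 0.093 for C. With the replicate block the adjusted p was 0.0623 for ATPase8, 0.0632 for mTTF, 0.0634 for PolG1 and 0.0577 for mRpL54. The summed protein-coding difference is 0.05 with or without the pairing by construction (exact sign-flip permutation p = 0.75). With 3 pairs that test cannot give a p under 0.25. The block changed no call among the mitochondrial rows other than that of ATPase8. ATPase8 and the tRNAs rest on few reads, so counting error is large for them.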
